A study of Nothobranchius furzeri with 185 samples.

Results

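The vacuolar-type proton pump (V-ATPase) and the cathepsins were described together across brain, liver, skin and tail fin of the short-lived killifish Nothobranchius furzeri. Members were all loci whose symbol in the count table, lower-cased and without a suffix of the form "(n of m)", begins with atp6v0, atp6v1, atp6ap1 or atp6ap2, or with cts followed by a letter. The rule used names only and no measured value. It gave 41 of 23564 loci, of which 24 belong to the pump and 17 are cathepsins. They carry 30 symbols, and 21 loci share their symbol with another member, so that reads of near-identical copies may have been split between them by the counting and their separate values are uncertain. A locus identifier follows the symbol wherever members share it. Other genes are named by symbol alone. Some of these symbols, such as DMXL2, OXR1, lamp1 and galns, match several loci, and a value given for them is that of a single locus.

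The V-ATPase is a rotary enzyme that spends ATP to move protons into lysosomes, endosomes and secretory or synaptic vesicles. Its soluble V1 part binds and splits ATP with the A and B subunits, a rotor with D and F carries the motion, C, E and G form stalks, and H regulates the enzyme. Its membrane part V0 holds subunit a, which anchors the enzyme and offers the proton path, the ring of c subunits, and the smaller d and e subunits. The accessory proteins ATP6AP1 and ATP6AP2 bind V0. Cathepsins are proteases, most of which work best in the acid the pump makes. Cathepsin D is an aspartic protease, cathepsin A a serine carboxypeptidase, and B, C, F, H, K, L, O, S and Z are cysteine proteases. In mammals the factor TFEB turns on genes of both groups, cathepsin K degrades bone matrix in osteoclasts, cathepsin S is a protease of antigen-presenting cells, and in neurons the pump loads synaptic vesicles.

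RNA was sequenced from 185 samples of this fish. Livers and skins of untreated fish were taken at 5, 12, 20, 27 and 39 weeks of age (5 fish per age and tissue). Brains, livers and skins came from fish given rotenone (an inhibitor of mitochondrial complex I, at 15 pM in the tank water for 4 weeks) at 27 weeks, and from fish given the vehicle DMSO at 27 and at 9 weeks (5 fish each). Water was renewed by 30% 2 times a week during these treatments, which began at 23 weeks for the older fish and at 5 weeks for the younger. Tail fin clips were taken from each of 45 fish at 10 and at 20 weeks, and the fish were grouped by age at death: long-lived fish died at 57.3 to 71.9 weeks, the middle group at 45.1 to 50.3 weeks and short-lived fish at 28.7 to 36.4 weeks (15 fish each). Fish identifiers in the labels mark the libraries that came from 1 animal, and the labels used name neither strain nor sex.

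Libraries held 14.97 to 54.95 M counted reads (median 30.51 M; M, mega). Some libraries stood apart and touch results below. The brain of the 27-week vehicle fish MC10 had the lowest summed neuron markers of its group (5830 CPM, counts scaled to the library's total, in a group that reached 8399) and its highest summed pump level (3245 RPKM, reads scaled by gene length and by the library's total, against 2091 to 2310 in the others of its group). The 12-week skin of fish JM109 held 22588 CPM of hepatocyte markers, and the skins of rotenone fish MR30 and vehicle fish MC7 held 2129 and 1044 CPM of testis markers. The 5-week liver of JM103 held yolk gene RNA. Markers of macrophages, osteoclasts and neurons were followed beside the members. The osteoclast list shares TCIRG1 with the list of pump assembly and regulation used below, and acp5a, clcn7 and ostm1 with the lists of other lysosomal genes.

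Levels below are RPKM and so allow loci to be compared. Fold changes are log2 differences from edgeR's quasi-likelihood test on the counts, with their standard error (SE), and a locus is called where its Benjamini-Hochberg adjusted p over all tested loci is under 0.05. "Tested" loci are those with enough counts for the fit: 20 to 24 pump and 13 or 14 cathepsin loci, depending on the samples. The cathepsin loci ctskl, ctssb.2 Nfu_g_1_004173 and ctsz Nfu_g_1_004601 never passed 0.15 RPKM in any library.

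**Figure D1:**
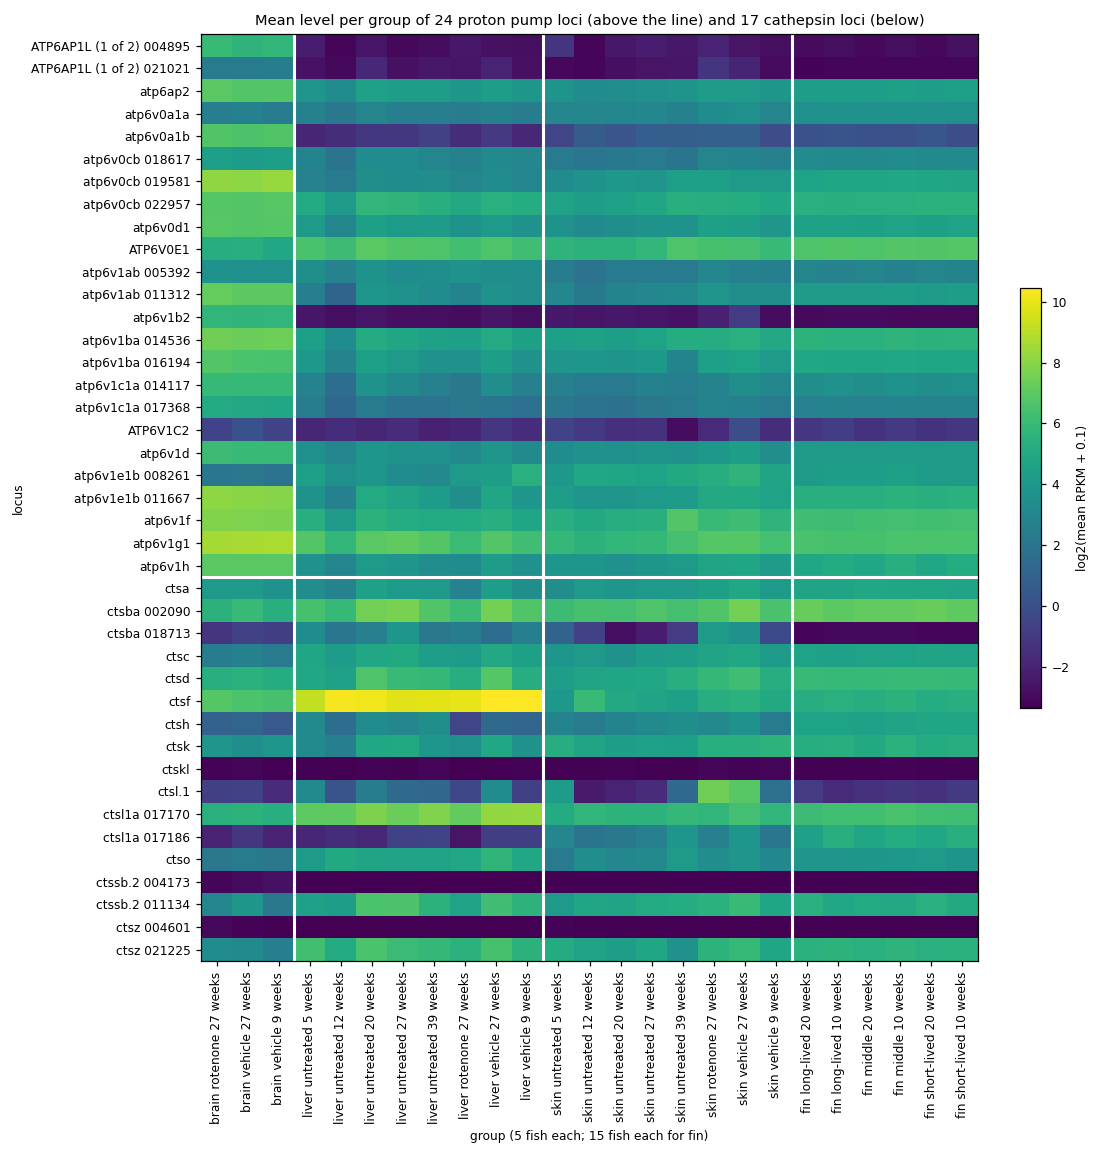
Mean level of each of the 24 pump loci (above the line) and 17 cathepsin loci (below the line) in each of the 25 groups, as log2 of mean RPKM plus 0.1. The pump block is brightest in brain, where atp6v1g1 averaged 404 RPKM over 15 brains, and ctsf stands out in liver with 1078 RPKM over the livers.

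Brain held far more pump RNA than skin or liver, and far less cathepsin RNA than liver. In the 5 vehicle fish of 9 weeks, from each of which all 3 tissues were sequenced, the 24 pump loci summed to 2479 ± 110 RPKM in brain, 450 ± 31.1 RPKM in skin and 411 ± 197 RPKM in liver (SD, n = 5 each). The 17 cathepsin loci summed to 255 ± 22.5 RPKM in brain, 378 ± 42.6 RPKM in skin and 2034 ± 196 RPKM in liver. Brain and skin were closer in cathepsin RNA. Their sums did not overlap in the 27-week vehicle fish either, with 263 to 413 RPKM in brain and 423 to 1264 RPKM in skin. They overlapped only between unlike groups, as with the untreated 5-week skins of other fish (244 to 342 RPKM). In the 9-week vehicle fish, pump RNA over cathepsin RNA was 9.77 ± 0.746 in brain, 1.20 ± 0.123 in skin and 0.199 ± 0.0777 in liver. The tissues did not overlap in this ratio. In tissue RNA, more cells of a type and more RNA per cell cannot be told apart.

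With the fish as a block, 17 of 23 tested pump loci were higher and 4 lower in brain than in liver, where 43.6% of all tested loci were higher and 35.6% lower. Of 14 tested cathepsin loci, 0 were higher and 11 lower in brain. The median log2 fold change was 1.63 over the pump and -3.27 over the cathepsins, against 0.22 over all loci. Against skin, 20 pump loci were higher and 3 lower in brain (background 39.6% and 36.3%), and 1 cathepsin was higher and 12 were lower. Skin against liver gave 1 pump locus higher and 7 lower, and 2 cathepsins higher and 6 lower (background 35.1% and 29.3%). The 3 tissue comparisons share their libraries. Scaling mattered here: the median locus was 1.62 log2 units higher in brain than in liver in RPKM but 0.22 in the fit. By RPKM, ctsa (13.3 against 11.7 RPKM) and atp6v1ab Nfu_g_1_005392 (11.9 against 10.8 RPKM) were slightly higher in brain, while the fit called them lower.

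Some pump copies were far higher in brain than in skin or liver, though they were not the main part of the brain's pump RNA. Over the 15 brains of all groups atp6v1g1 gave 16.2% of the pump sum, and atp6v0a1b gave 4.08%. atp6v0a1b, a gene for the a1 subunit of V0, was at 106.34, 97.69, 101.49, 103.08 and 106.28 RPKM in the 5 brains, at 0.86, 1.07, 0.85, 0.79 and 0.66 RPKM in the skins and at 0.22, 0.18, 0.2, 0.14 and 0.24 RPKM in the livers. Every brain lay far above every skin, and every skin above every liver. The log2 fold change was 7.56 ± 0.21 (SE) between brain and liver (edgeR, adjusted p = 6.2e-11) and 6.21 ± 0.19 between brain and skin. Its paralog atp6v0a1a did not share this pattern, with 5.3 ± 0.769 RPKM in brain, 7.56 ± 0.969 RPKM in skin and 5.34 ± 0.48 RPKM in liver, and it was called lower in brain in both comparisons (log2 -1.24 against skin and -1.48 against liver). Of the RNA of this pair, atp6v0a1b made up 95.1% in brain, 10.0% in skin and 3.57% in liver.

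The B subunit gene atp6v1b2 was at 42.84 to 57.61 RPKM in the brains, against 0 to 0.1 RPKM in the skins and 0 to 0.08 RPKM in the livers. ATP6AP1L Nfu_g_1_004895, named as a relative of the accessory subunit ATP6AP1, had the same form, at 45.24 to 60.62 RPKM in the brains, 0 to 0.08 RPKM in the skins and 0 to 0.1 RPKM in the livers. Over the 15 brains of all groups atp6v1b2 averaged 52.9 RPKM. The B subunit loci atp6v1ba Nfu_g_1_014536 and Nfu_g_1_016194 were higher there, at 172 and 98.4 RPKM. The c-ring gene atp6v0cb Nfu_g_1_019581 was at 280.22, 392.27, 322.86, 270.85 and 313.79 RPKM in the brains, against 8.99, 6.18, 11.34, 8.56 and 4.17 RPKM in the livers (log2 3.92 ± 0.20, adjusted p = 3e-09). The skins held 14.33 to 20.25 RPKM. Among the 3 atp6v0cb loci it supplied 69.5% of the RNA in brain, and Nfu_g_1_022957 supplied 68.4% in liver.

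The 2 loci of the E stalk subunit, atp6v1e1b, were divided in the same manner. Nfu_g_1_011667 averaged 248 ± 23.3 RPKM in brain, 24 ± 2.66 RPKM in skin and 14.8 ± 17.2 RPKM in liver, and Nfu_g_1_008261 averaged 3.75 ± 0.966, 26.3 ± 2.86 and 42.9 ± 40.3 RPKM in the same tissues. Nfu_g_1_008261 gave 1.51% of the pair in brain, 52.3% in skin and 71.5% in liver. It was also 1 of the 4 pump loci called lower in brain than in liver (log2 -4.75). The small e subunit ATP6V0E1 was another, with 29.4 ± 1.84 RPKM in brain, 65.4 ± 7.15 RPKM in skin and 74.8 ± 32.4 RPKM in liver (log2 -2.74 ± 0.17 against liver). The other core loci called higher in brain than in liver differed by 1.14 (atp6v1g1, stalk) to 2.49 log2 units (atp6v1ab Nfu_g_1_011312, the catalytic A subunit), and atp6v1h, the regulatory H subunit, lay between them at 1.98.

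Among cathepsins, ctsf set the level of the liver. It was at 82.2, 86.36, 96.58, 82.85 and 88.4 RPKM in the brains, 32.87, 39.33, 29.88, 36.54 and 28.52 RPKM in the skins and 1152.93, 1544.25, 1285.91, 1333.34 and 1693.41 RPKM in the livers. Livers stood more than 10 times above brains in every fish, and brains above skins. The log2 fold change was -5.47 ± 0.24 for brain against liver (adjusted p = 8.5e-10) and 0.66 ± 0.20 for brain against skin (adjusted p = 0.0096), which made ctsf the only cathepsin called higher in brain than in skin. Over the livers of all groups ctsf gave 64.0% of the cathepsin sum.

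Most other cathepsins were called lower in brain. Cathepsin L ctsl1a Nfu_g_1_017170 averaged 41.5 ± 3.23 RPKM in brain, 52.6 ± 6.87 RPKM in skin and 307 ± 43.5 RPKM in liver (log2 -4.35 ± 0.18 for brain against liver). Cathepsin Z, ctsz Nfu_g_1_021225, averaged 6.01 ± 0.816, 28.7 ± 3.52 and 46 ± 21.1 RPKM in the same order (log2 -4.32 ± 0.20), and ctsc, the dipeptidyl peptidase that activates serine proteases of leukocytes, 4.78 ± 0.853, 18.4 ± 1.88 and 22.5 ± 13.4 RPKM. The second ctsl1a locus, Nfu_g_1_017186, was mainly a surface gene: it was at 0.156 RPKM in brain, 4.1 RPKM in skin and 0.492 RPKM in liver, and ranged between 23.85 and 39.45 RPKM in the means of the fin groups. Cathepsin K was also higher in skin than in liver (47 ± 10.1 against 13.6 ± 22.1 RPKM, log2 2.01, adjusted p = 0.033).

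Marker sums moved with these levels between brain and the other tissues, but not between skin and liver. Neuron markers summed to 7156 to 8720 CPM in brain, 42.7 to 61.2 CPM in skin and 88 to 164 CPM in liver. Macrophage markers summed to 139 to 197 CPM in brain, 716 to 987 CPM in skin and 177 to 1956 CPM in liver, and 18 of the 24 tested were called lower in brain than in liver. Their part in the members' differences was not tested. Other lysosomal genes were also more often lower than higher in brain against liver: 33 of 44 hydrolases were lower and 5 higher (median -1.29), and of 34 membrane proteins and transporters 20 were lower and 9 higher. Of 14 genes of the TFEB family and of nutrient sensing at the lysosome, 11 were lower and 0 higher. Of 15 genes for pump assembly and regulation outside the rule, 7 were higher and 4 lower, shares near the background of 43.6% and 35.6%, with OXR1 (log2 1.83) and WDR7 (1.26) among the higher.

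**Figure D2:**
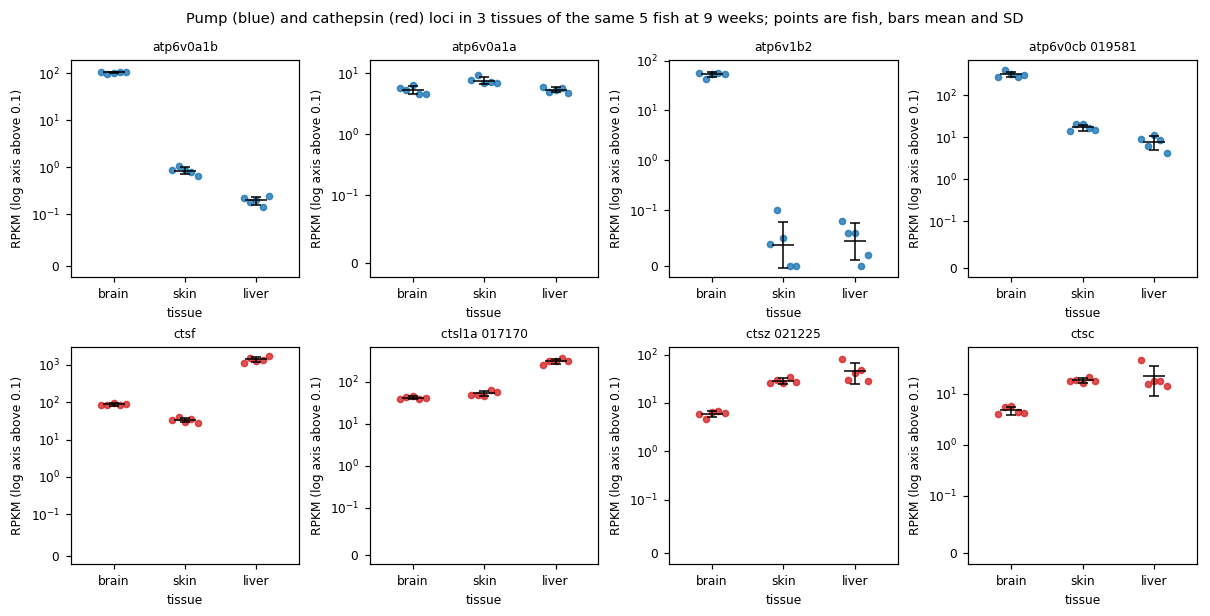
RPKM (log axis) of 4 pump loci and 4 cathepsin loci in brain, skin and liver of the 5 vehicle fish of 9 weeks; points are fish and bars the means. atp6v0a1b is near 103 RPKM in brain, against 0.196 RPKM in liver, while ctsf is at 87.3 RPKM in brain, against at least 1152.93 RPKM in every liver.

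In ageing skin of untreated fish most pump loci were higher at the last age. At 39 weeks 15 of 20 tested pump loci were higher and 1 lower than at 12 weeks (background 24.3% higher and 25.1% lower), and 8 of 14 cathepsins were higher and 1 lower. Median log2 fold changes were 0.76 over the pump and 0.58 over the cathepsins, against 0.06 over all loci. Summed pump RNA averaged 346, 321, 338, 376 and 548 RPKM at 5, 12, 20, 27 and 39 weeks, and summed cathepsin RNA 298, 364, 307, 351 and 362 RPKM. Pump sums at 39 weeks (409 to 669 RPKM) lay above those at 12 weeks (290 to 339 RPKM). They overlapped those at 27 weeks (315 to 470 RPKM), and 39 against 27 weeks was not tested. Levels this high were also seen in younger fish of the treatment arm. Vehicle skins held pump sums of 415 to 489 RPKM at 9 weeks and 475 to 770 RPKM at 27 weeks. The difference between the arms was not tested. The cathepsin sums overlapped between 39 weeks (310 to 399 RPKM) and 12 weeks (248 to 538 RPKM). The highest at 12 weeks was the skin of JM109, and the others reached 355 RPKM. RPKM and the fit differ in scale here: the median log2 change of all loci was -0.32 in RPKM and 0.06 in the fit, and that of the cathepsins 0.19 in RPKM and 0.58 in the fit. Over all 5 ages, 16 pump and 13 cathepsin loci were called in a test of any difference (background 66.5%).

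The largest pump change was in atp6v1f, the rotor subunit F. The 39-week skins held 144.14, 131.68, 111.01, 93.51 and 65.33 RPKM, against 27.34, 35.02, 37.01, 32.82 and 33.99 RPKM at 12 weeks. All older skins lay above all younger ones, with log2 2.11 ± 0.20 (adjusted p = 8.8e-08). Against 5 weeks, where the mean was 40.8 ± 3.79 RPKM, the log2 fold change was 1.74. The e subunit ATP6V0E1 was at 123.32, 109.81, 100.93, 108.02 and 70.16 RPKM at 39 weeks, against 48.61, 53.21, 44.66, 50.44 and 36.92 RPKM at 12 weeks (log2 1.52 ± 0.19, adjusted p = 1e-06), again without overlap.

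The B subunit loci parted. atp6v1ba Nfu_g_1_014536 was at 35.32, 38.76, 42.48, 37.48 and 29.19 RPKM at 39 weeks, against 20.21, 23.46, 25.12, 25.03 and 21.64 RPKM at 12 weeks (log2 1.06 ± 0.15, adjusted p = 5.5e-06). The other locus of that symbol, Nfu_g_1_016194, fell: it averaged 7.34 ± 2.22 RPKM at 39 weeks and 15.1 ± 1.93 RPKM at 12 weeks, without overlap (log2 -0.63 ± 0.20, adjusted p = 0.011). It made up 16.7% of atp6v1b RNA at 39 weeks and 39.4% at 12 weeks. The fourth by p-value, atp6v1c1a Nfu_g_1_017368 of the stalk, averaged 4.81 ± 0.712 RPKM at 39 weeks and 3.72 ± 0.403 RPKM at 12 weeks (log2 0.76 ± 0.12).

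The other 11 pump loci called higher at 39 than at 12 weeks had changes in the same direction, from log2 0.44 (atp6v1d, rotor) to 1.47 (atp6v1ab Nfu_g_1_011312, catalytic). Among them, the stalk subunit atp6v1g1 averaged 83.8 ± 21.5 RPKM at 39 weeks and 45.7 ± 8.1 RPKM at 12 weeks (log2 1.28). The c-ring locus atp6v0cb Nfu_g_1_022957 averaged 39.5 ± 12.6 and 20.2 ± 2.09 RPKM at the same ages (log2 1.38), and atp6v0d1, which joins V0 to the rotor, 13.6 ± 3.02 and 9.31 ± 0.819 RPKM (log2 0.96).

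Of the cathepsins, ctsd was the clearest. It was at 37.66, 44.14, 48.83, 35.92 and 39.74 RPKM at 39 weeks, against 22.17, 29.58, 27.21, 31.1 and 23.43 RPKM at 12 weeks, without overlap (log2 1.03 ± 0.17, adjusted p = 3.3e-05). It was lower still at 5 weeks, with 20.2 ± 0.908 RPKM. The second ctsl1a locus, Nfu_g_1_017186, was at 8.11, 17.78, 8.46, 30.78 and 9.11 RPKM at 39 weeks, against 2.88, 4.07, 3.29, 5.36 and 3.97 RPKM at 12 weeks (log2 2.27 ± 0.46, adjusted p = 0.00031).

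Cathepsin O (ctso) was at 10.82, 21.53, 10.99, 26.6 and 15.5 RPKM at 39 weeks, against 7.99, 12.13, 10.44, 9.88 and 12.06 RPKM at 12 weeks, with overlap (log2 1.06 ± 0.27, adjusted p = 0.0026). The aminopeptidase ctsh was at 5.87, 17.45, 7.27, 18.63 and 8.79 RPKM, against 3.26, 5.08, 3.35, 6.66 and 7.58 RPKM (log2 1.51 ± 0.42, adjusted p = 0.0045). Fish JM13 and JM18 were the highest of the 39-week group for ctso, ctsh and ctsl1a Nfu_g_1_017186. They also had the highest macrophage sums of that group, 1459 CPM in JM13 and 1766 CPM in JM18, against 935 to 1096 CPM in the other 3 skins.

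Of the cathepsins, ctsf alone was called lower at 39 than at 12 weeks (21.9 ± 2.61 against 65 ± 64.1 RPKM, log2 -1.15), and this call rested on the skin of JM109: at 12 weeks ctsf was at 34.23, 179.52, 40.97, 34.36 and 35.7 RPKM, with the second value in JM109. Without that skin the log2 fold change was -0.36 (adjusted p = 0.21). JM109 held 22588 CPM of hepatocyte markers, against 924 to 1222 CPM in the other 12-week skins, and ctsf is the leading liver cathepsin. The part of liver RNA in that value was not tested beyond leaving out the skin.

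Against 5 weeks, 11 pump loci were higher and 1 lower at 39 weeks (background 25.6% and 28.9%), and 8 cathepsins were higher and 1 lower. ctso averaged 17.1 ± 6.88 RPKM at 39 weeks and 5.08 ± 1.29 RPKM at 5 weeks (log2 2.04 ± 0.28). The a1 paralog atp6v0a1b averaged 1.73 ± 0.462 and 0.644 ± 0.157 RPKM (log2 1.73), and its share of the a1 pair was 7.59% at 5 weeks, 16.4% at 12 weeks and 21.1% at 39 weeks. ctsz Nfu_g_1_021225 went the other way, with 13.2 ± 4.91 RPKM at 39 weeks and 35.6 ± 5.03 RPKM at 5 weeks (log2 -1.08 ± 0.27, adjusted p = 0.002).

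Fewer loci were called between the first 2 ages. Between 12 and 5 weeks 2 pump loci were higher, atp6v0a1b (log2 1.23 ± 0.26) and atp6v1e1b Nfu_g_1_008261 (0.84 ± 0.22), and 5 were lower, by 0.36 to 0.64 log2 units, in a background of 14.6% higher and 16.6% lower. Of the cathepsins, ctsf (log2 1.89, or 1.1 without JM109), ctso (0.97) and ctsa (0.59) were higher. ctsk (-0.60), ctsl1a Nfu_g_1_017186 (-1.17) and ctsl.1 (-7.54) were lower. The 12, 5 and 39-week comparisons share their groups.

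**Figure D3:**
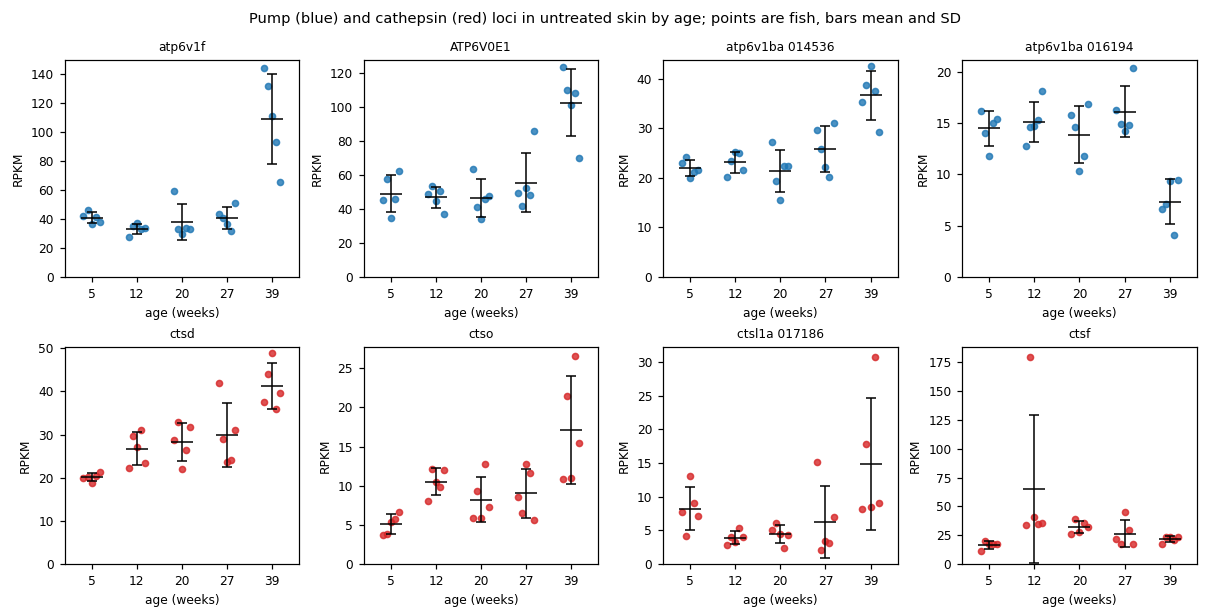
RPKM of 4 pump loci and 4 cathepsin loci in skin of untreated fish at 5, 12, 20, 27 and 39 weeks. Points are fish (5 per age) and bars the mean and SD. atp6v1f, ATP6V0E1 and ctsd are higher at 39 than at 12 weeks, atp6v1ba Nfu_g_1_016194 is lower, and a lone 12-week skin at 179.52 RPKM lifts the ctsf mean.

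Other lysosomal genes were called in both directions in skin between 39 and 12 weeks. The background was 24.3% higher and 25.1% lower, and the hydrolase and membrane protein counts lay near it. Of 44 hydrolases 13 were higher, with galns (log2 1.71) and ppt2 (1.28) among them, and 10 lower, with smpd1 (-2.35). Of 33 membrane proteins 8 were higher, as was lamp1 (1.17), and 9 lower, as were lamp2 (-1.61) and SCARB2 (-1.88). In the list of TFEB and nutrient sensing 8 of 14 were higher, including lamtor3 (1.36) and rraga (1.02), and 3 lower. Of 15 genes for pump assembly and regulation, 4 were higher and 8 lower. Among the lower were a DMXL2 locus (-2.62) and WDR7 (-2.17), whose mammalian counterparts help assemble the pump. The protease inhibitor cystatin C gene cst3 was higher (0.85).

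Macrophage markers and gene length were examined beside the skin result. Of 22 tested macrophage markers 9 were higher and 1 lower at 39 than at 12 weeks (background 24.3% and 25.1%). Their sum was 935 to 1766 CPM at 39 weeks, 683 to 1150 CPM at 12 weeks and 586 to 855 CPM at 5 weeks. In the 39-week skins of JM1, JM13, JM15, JM18 and JM24 it was 935, 1459, 1096, 1766 and 943 CPM. The pump sums of these skins were 669, 556, 601, 504 and 409 RPKM, so the highest pump sum went with the lowest macrophage sum. At 27 weeks macrophage sums were 742 to 1703 CPM, with pump sums of 315 to 470 RPKM. The osteoclast sum was 220 to 408 CPM at 39 weeks and 361 to 454 CPM at 12 weeks. Their part in the result was not tested. Of the 5 largest pump changes, those of atp6v1f (360 bases), ATP6V0E1 (210 bases) and atp6v1g1 (357 bases) were in short gene models, whereas atp6v1ab Nfu_g_1_011312 (3577 bases) and atp6v0cb Nfu_g_1_022957 (3382 bases) have long ones. With each library's trend along gene length taken out, atp6v1f, ATP6V0E1 and atp6v1g1 had log2 fold changes of 1.95, 1.28 and 1.12, and 24 member loci were called in place of 25. Each library's trend along the difference of all loci between the MC10 brain and the other 27-week vehicle brains was also taken out. Then 12 member loci were called: 6 pump loci higher, with atp6v1f at 1.20 and ATP6V0E1 at 0.85, 4 cathepsins higher and 2 lower. The pump median was 0.23, against 0.76 without that step. Pump loci are part of that difference, and MC10 had the highest pump sum of its group. How far this set the lower median was not tested. The share of all loci called after the length step or the MC10 step is not given here, so these counts stand without a background.

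In liver, age left the members mostly uncalled. Between 39 and 12 weeks 0 of 20 pump and 0 of 14 cathepsin loci were called, and 0% of all loci were (edgeR; at an unadjusted p under 0.05 there were 2 pump loci, 0 cathepsins and 3026 loci in all). Between 39 and 5 weeks 1 pump locus was higher and 1 lower (background 5.22% and 6.77%), and between 12 and 5 weeks 1 was higher and 0 lower (5.51% and 8.01%). Cathepsin loci were called in neither. Over all 5 ages 2 pump loci and 0 cathepsins were called (background 12.9%).

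The 2 pump loci were the same copies that marked tissue differences. atp6v0a1b was at 0.81, 0.26, 0.43, 0.6 and 0.57 RPKM at 39 weeks, against 0.32, 0.2, 0.07, 0.15 and 0.18 RPKM at 5 weeks, low levels that overlap in a pair of fish (log2 1.52 ± 0.33, adjusted p = 0.0043). At 12 weeks it was at 0.13 to 0.33 RPKM (log2 1.02 against 5 weeks, adjusted p = 0.043), and that call was lost in 18 of 31 other settings. atp6v1e1b Nfu_g_1_008261 was at 7.92, 7.64, 9.35, 10.79 and 9.26 RPKM at 39 weeks, against 18.98, 28.02, 18.64, 23.29 and 18.97 RPKM at 5 weeks, without overlap (log2 -1.36 ± 0.32, adjusted p = 0.0079). Its log2 difference between 39 and 12 weeks was -1.02 ± 0.32 (adjusted p = 0.16).

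Of the cathepsins, ctsf had the smallest p between 12 and 5 weeks, at 1075.65, 1327.42, 1434.22, 1481.69 and 901.81 RPKM at 12 weeks, against 178.17, 877.94, 327.63, 962.81 and 585.36 RPKM at 5 weeks. The groups overlap, and the log2 difference of 1.55 ± 0.56 missed the threshold (adjusted p = 0.067). The 5-week liver at 327.63 RPKM, that of JM103, held 69682 CPM of yolk and egg envelope markers, against a median of 11.3 CPM in its group, and without it the log2 difference was 1.43, also uncalled. Between 39 and 12 weeks ctsf was not called (log2 -0.93).

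Livers of the same age differed widely in pump RNA. Summed pump RNA was 283 to 1535 RPKM among the 20-week livers, highest in JM75, and 236 to 1440 RPKM among the 27-week livers, highest in JM61. In 8 of the 8 liver groups, treated ones included, the liver with the highest pump sum was also the one with the highest macrophage sum and the highest osteoclast sum. The same held for macrophages in 2 of 8 skin groups and 0 of 3 brain groups. The osteoclast sum is partly built from pump and lysosomal genes (TCIRG1, acp5a, clcn7 and ostm1), so its match with the pump sum is not independent. JM75 and JM61 held 5222 and 4545 CPM of macrophage markers, in groups whose lowest livers held 519 and 549 CPM, and their ctsk was at 105 and 138.75 RPKM. Hepatocyte markers were lowest in the liver with the highest pump sum in 3 of the 8 groups (JM100, JM115 and JM75), and JM75 held 83382 CPM of them, against 95744 to 176713 CPM in the other 20-week livers. The part of these markers in the spread was not tested.

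**Figure D4:**
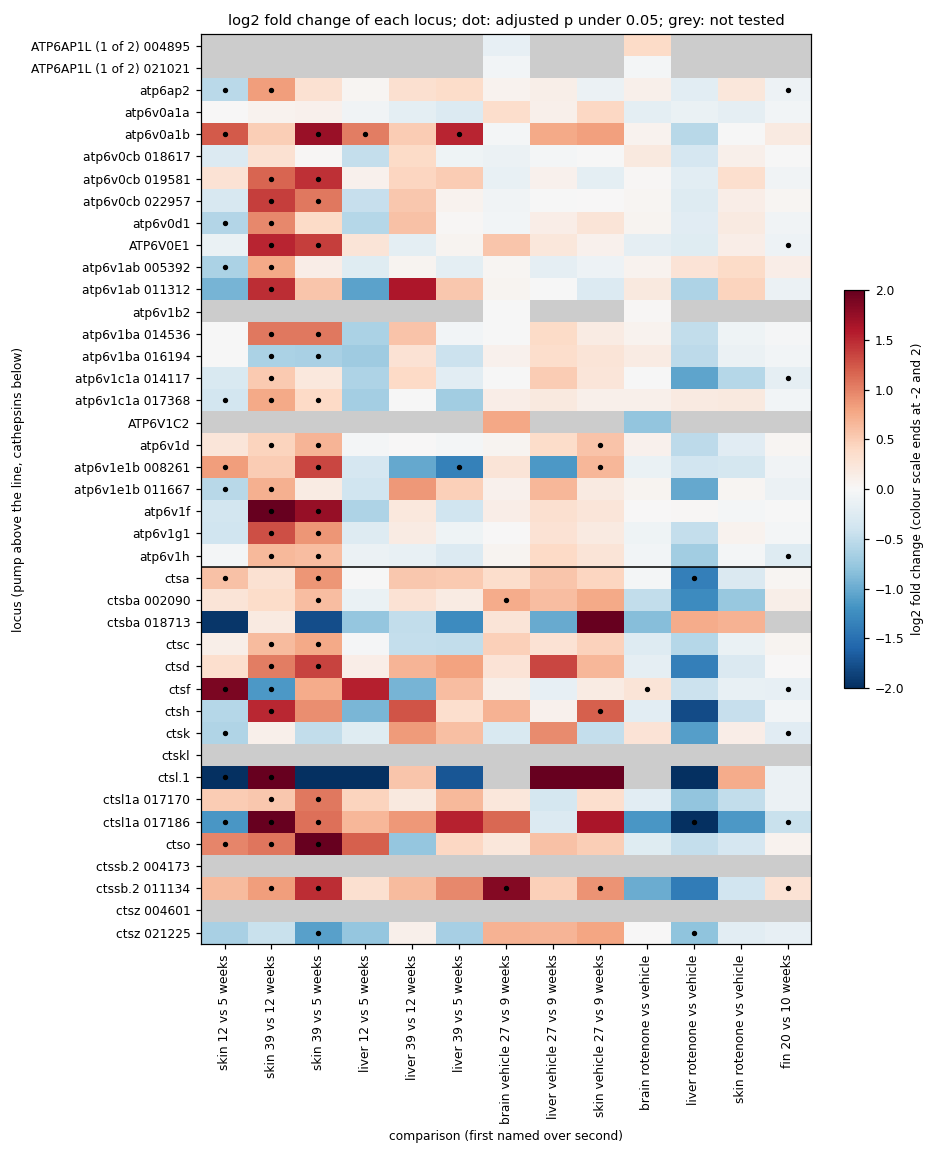
Log2 fold change of each member locus (rows, pump above cathepsins) in 13 comparisons (columns); dots mark adjusted p under 0.05 and grey cells were not tested. The columns of untreated skin by age hold most dots, and the liver age, vehicle age, rotenone and fin columns hold few or none.

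Vehicle fish of 27 against 9 weeks gave a second view of age, with brain added. In brain 0 of 24 pump loci were called (2 at an unadjusted p under 0.05) and 2 of 13 cathepsins were higher and 0 lower, in a background of 1.2% higher and 0.889% lower. The cathepsin S locus ctssb.2 Nfu_g_1_011134 was at 15, 16.77, 8.39, 5.6 and 31.48 RPKM in the 27-week brains, against 3.56, 5.24, 5.31, 5.56 and 2.28 RPKM in the 9-week brains, just short of overlap (log2 1.83 ± 0.39, adjusted p = 0.028). Cathepsin B, ctsba Nfu_g_1_002090, was at 51.6, 69, 45.02, 52.14 and 104.64 RPKM, against 37.25, 41.55, 46.16, 37.73 and 32.57 RPKM, with overlap (log2 0.74 ± 0.18, adjusted p = 0.049). MC9 was the highest brain for both loci.

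These calls were near the threshold, and were lost in 5 and in 14 of 19 other settings. MC9 also had the highest macrophage sum among the brains, in ranges of 175 to 474 CPM at 27 weeks and 139 to 197 CPM at 9 weeks, and 4 of 23 macrophage markers were called higher and 0 lower, c1qc (log2 1.66) and mrc1b (0.92) among them. Their part in the result was not tested. The pump loci with the smallest p were atp6v0a1a, with 6.62 ± 0.395 RPKM at 27 weeks and 5.3 ± 0.769 RPKM at 9 weeks (log2 0.35 ± 0.10, adjusted p = 0.074), and ATP6V0E1 (log2 0.55 ± 0.18, adjusted p = 0.12). Without the brain of MC10, 2 pump loci were higher and 4 lower, with changes of -0.17 (atp6v1h) to -0.36 (atp6v0cb Nfu_g_1_019581) among the lower ones, and 4 cathepsins were higher. The share of all loci called without that brain is not given here.

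In liver 0 of 20 pump and 0 of 14 cathepsin loci were called between 27 and 9 weeks (background 4.69% and 7.68%; at an unadjusted p under 0.05, 1 pump locus, 3 cathepsins and 4774 loci in all). The smallest p among pump loci was that of atp6v0a1b, with 0.388 against 0.196 RPKM in the means (log2 0.76, adjusted p = 0.085). Among cathepsins ctsz Nfu_g_1_021225 came first (log2 0.68, adjusted p = 0.067). The 9-week liver of MC1 stood apart with a pump sum of 754 RPKM and a macrophage sum of 1956 CPM. Macrophage sums were 909 to 3776 CPM at 27 weeks and 177 to 1956 CPM at 9 weeks, where the highest liver other than MC1 held 679 CPM. Without MC1 7 cathepsins were called, all higher at 27 weeks, including ctsk (log2 2.67), ctssb.2 Nfu_g_1_011134 (2.39), ctsd (1.87) and ctsba Nfu_g_1_002090 (1.70), and the macrophage sums then did not overlap. Their part in these values was not tested. The share of all loci called without MC1 is not given here.

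In skin 2 pump and 2 cathepsin loci were higher and 0 lower (background 3.71% and 6.76%). The rotor subunit atp6v1d was at 14.65, 18.85, 19.33, 24.19 and 23.4 RPKM at 27 weeks, against 11.6, 11.63, 10.76, 12.99 and 9.38 RPKM at 9 weeks, without overlap (log2 0.57 ± 0.15, adjusted p = 0.031). atp6v1e1b Nfu_g_1_008261 was at 31.3, 43.44, 53.73, 64.9 and 59.38 RPKM, against 29.81, 25.36, 25.56, 28.17 and 22.36 RPKM, also without overlap (log2 0.67 ± 0.19, adjusted p = 0.035).

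ctssb.2 Nfu_g_1_011134 was at 54.28, 30.53, 67.71, 57.31 and 107.13 RPKM in skin at 27 weeks, against 29.62, 31.23, 24.41, 32.27 and 21.62 RPKM at 9 weeks (log2 0.90 ± 0.24, adjusted p = 0.03), and ctsh averaged 13.4 ± 7.81 RPKM at 27 weeks and 4.81 ± 2 RPKM at 9 weeks (log2 1.19 ± 0.36). The groups overlap for both, and MC9 was again highest. ctssb.2 was thus called higher at 27 weeks in both brain and skin, from the same fish. Macrophage sums were 1118 to 2486 CPM at 27 weeks and 716 to 987 CPM at 9 weeks, highest in MC9, and osteoclast sums 498 to 734 CPM at 27 weeks and 349 to 460 CPM at 9 weeks, both without overlap. Their part was not tested. The 4 skin calls were not stable: 0 members were called without the skin of MC2, MC3, MC5 or MC9, and 1 without that of MC4 or MC8. The share of all loci called without these skins is not given here.

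The comparison of rotenone with vehicle at 27 weeks asks what the treatment did at that age. It uses the same 27-week vehicle fish as the age comparison, so a high or low vehicle group enters both. In brain 0 of 24 pump loci were called (1 at an unadjusted p under 0.05) and 1 of 13 cathepsins was higher and 0 lower (background 3.26% and 5.43%). ctsf was at 118.65, 111.11, 100.23, 112.35 and 124.16 RPKM in rotenone brains, against 85.36, 89.85, 92.35, 101.15 and 95.82 RPKM in vehicle brains, overlapping in a pair (log2 0.25 ± 0.07, adjusted p = 0.047). That call was lost in 13 of 19 other settings. In the age comparison of brains ctsf was not called.

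Leaving out the vehicle brain of MC10 changed the count of called pump loci. Then 11 pump loci were called higher with rotenone, all by 0.17 to 0.30 log2 units, and 1 lower (ATP6V1C2, -1.04), with ctsf higher (0.25) and ctsba Nfu_g_1_002090 lower (-0.54). The share of all loci called without MC10 is not given here, so these counts stand without a background. The summed pump level was 2490 to 2634 RPKM in rotenone brains, against 2091 to 2310 RPKM in the vehicle brains other than MC10 and 3245 RPKM in MC10. In the full comparison 0 of 15 genes for pump assembly and regulation were higher and 4 lower (background 3.26% and 5.43%). A DMXL2 locus (log2 -6.56) and an OXR1 locus (-2.63) were among the lower.

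In liver 0 of 20 pump loci were called and 0 cathepsins were higher and 3 lower with rotenone (background 13.9% higher and 12% lower). The fold changes of 17 of 20 pump loci and 13 of 14 cathepsins were below 0, with medians of -0.36 and -1.18. The second ctsl1a locus, Nfu_g_1_017186, was at 0.04, 0.06, 0.13, 0.06 and 0.04 RPKM in rotenone livers, against 0.05, 0.59, 0.92, 0.56 and 0.35 RPKM in vehicle livers, low levels in both (log2 -2.78 ± 0.67, adjusted p = 0.0091). ctsz Nfu_g_1_021225 was at 30.49, 45.87, 34.16, 68.28 and 52.53 RPKM, against 48.19, 66.24, 101.86, 78.22 and 133.66 RPKM (log2 -0.80 ± 0.23, adjusted p = 0.022). ctsa, which protects lysosomal glycosidases, was at 5.98, 6.34, 5.28, 9.15 and 7.73 RPKM, against 7.79, 8.52, 26.12, 12.15 and 46.78 RPKM (log2 -1.36 ± 0.46, adjusted p = 0.041).

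The vehicle livers were widely spread, with MC9 and MC7 the highest for ctsz Nfu_g_1_021225 and ctsa, MC7 the highest for ctsl1a Nfu_g_1_017186 and MC10 the lowest for all 3. The macrophage sum was 493 to 792 CPM in rotenone livers and 909 to 3776 CPM in vehicle livers, without overlap, and the osteoclast sum 62.8 to 93.1 CPM against 73.5 to 669 CPM. Of 23 macrophage markers 4 were lower and 0 higher (median -1.55). Without the vehicle liver of MC9, ctsl1a Nfu_g_1_017186 was the only cathepsin called (log2 -2.90), atp6v1ab Nfu_g_1_005392 was called higher (0.39), and the medians moved to 0.15 for the pump and -0.47 for the cathepsins. Without the livers of MC7 and MC8, 0 members were called. The share of all loci called without these livers or without MC9 is not given here. Of other lysosomal genes, 8 of 44 hydrolases were lower and 0 higher, and of 33 membrane proteins 6 were lower and 2 higher.

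In skin 0 of 20 pump and 0 of 14 cathepsin loci were called (background 7.08% and 5.19%; at an unadjusted p under 0.05, 2 pump loci, 2 cathepsins and 5331 loci in all). The smallest p-values were those of the stalk subunit atp6v1c1a Nfu_g_1_014117, at 8.61, 8.32, 4.81, 7.96 and 5.64 RPKM with rotenone, against 8.23, 9.27, 10.34, 13.06 and 15.61 RPKM with vehicle (log2 -0.57, adjusted p = 0.076), and of ctsba Nfu_g_1_002090, at 125.52, 113.19, 72.7, 114.44 and 94.92 RPKM, against 123.35, 122.99, 158.77, 216.76 and 327.09 RPKM (log2 -0.76 ± 0.24). The ctsba value sits at the threshold, just outside it. A lone rotenone skin lay inside the vehicle range for ctsba. Osteoclast sums were 282 to 444 CPM in rotenone skins and 498 to 734 CPM in vehicle skins, without overlap, and macrophage sums 908 to 1832 CPM in rotenone skins and 1118 to 2486 CPM in vehicle skins. Their part was not tested.

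**Figure D5:**
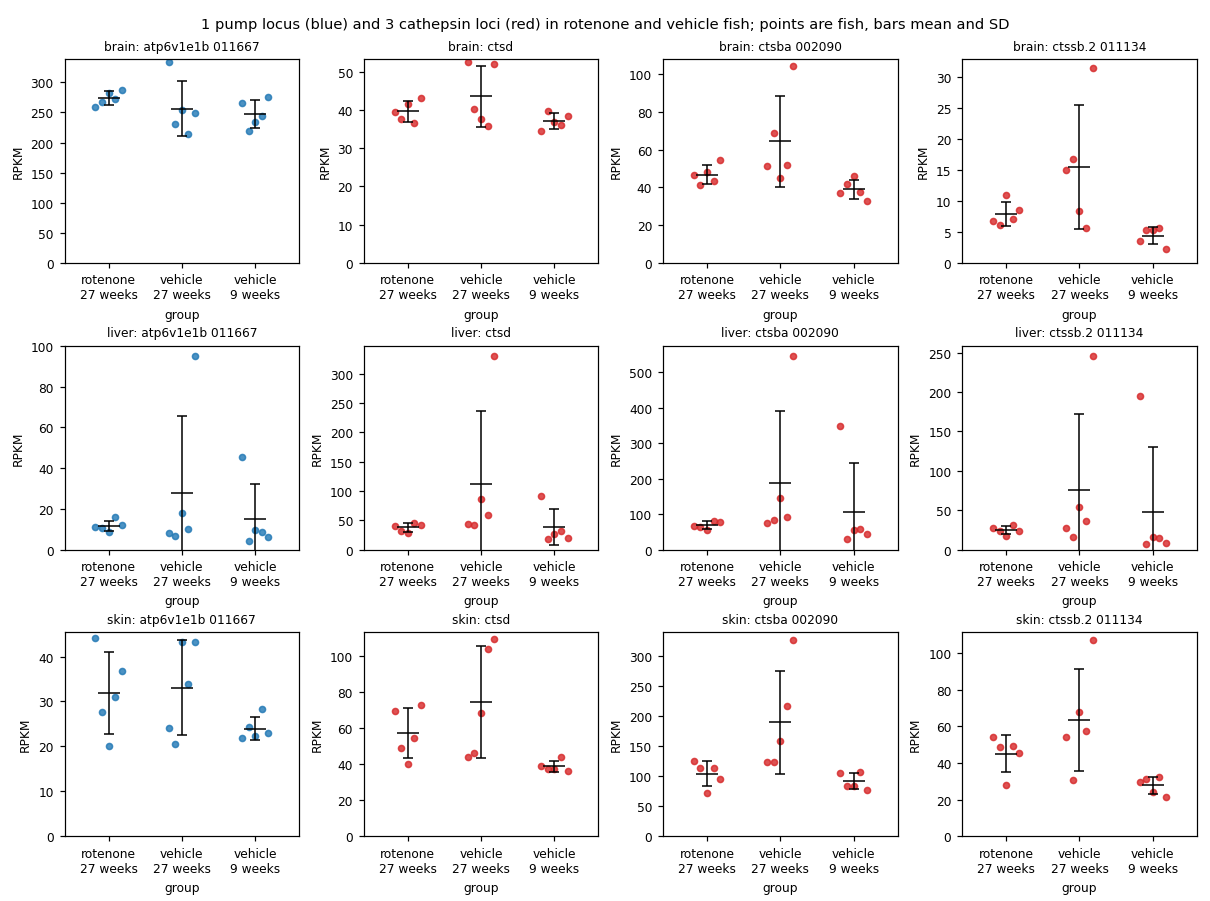
RPKM of atp6v1e1b Nfu_g_1_011667, ctsd, ctsba Nfu_g_1_002090 and ctssb.2 Nfu_g_1_011134 in brain, liver and skin of rotenone fish at 27 weeks, vehicle fish at 27 weeks and vehicle fish at 9 weeks; points are fish (5 per group) and bars the means. ctssb.2 is higher in 27-week than in 9-week vehicle brains. The rotenone livers hold 27.62 to 45.73 RPKM of ctsd, and the single highest vehicle liver of 27 weeks holds 330.97 RPKM. ctsd was not called between rotenone and vehicle livers.

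Cathepsin loci ctsl.1 and ctsba Nfu_g_1_018713 ranged widely among skins of the same group. ctsl.1, a cathepsin L relative, was at 789.57, 0.86, 59.58, 0.23 and 17.76 RPKM in the rotenone skins, at 0.15, 0.04, 582.43, 0.47 and 4.3 RPKM in the 27-week vehicle skins, and at 0.13 to 11.66 RPKM in the 9-week vehicle skins. In untreated fish it was at 31.29, 0.12, 0.14, 38.26 and 22.87 RPKM at 5 weeks and never passed 0.46 RPKM at 12, 20 or 27 weeks. Fish of the same group thus lay at both ends of its range, and its fold changes between groups (log2 5.06 for 39 against 12 weeks in skin, with a mean of 2.47 against 0.1 RPKM) rest on a few fish.

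ctsba Nfu_g_1_018713, the second cathepsin B locus, followed it. It was at 82.39 RPKM in the rotenone skin of MR26 and at 63.54 RPKM in the vehicle skin of MC7, the 2 skins with the most ctsl.1. Over all 40 skins, the 9 with ctsl.1 above 10 RPKM (11.19 to 789.57) held 1.77 to 82.39 RPKM of this locus, and the other 31 (ctsl.1 at most 4.3 RPKM) held a median of 0.04 and at most 2.51 RPKM, with 2 of them above 1 RPKM. The 9 were 3 rotenone skins, 1 vehicle skin of 27 weeks, 1 of 9 weeks, 3 untreated skins of 5 weeks and 1 of 39 weeks. These loci and the 10 RPKM level were chosen after their values were seen, and no test is attached. MC7 is also 1 of the skins with testis markers, but MR30, the other, held only 17.76 RPKM of ctsl.1.

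In tail fin, the change from 10 to 20 weeks was small in the 33 tested members. With the fish as a block, 0 of 20 tested pump loci were higher and 4 lower at 20 weeks, and 1 of 13 cathepsins was higher and 3 lower, in a background of 11.9% higher and 12.9% lower. Log2 fold changes spanned -0.26 to 0.18 over the pump and -0.44 to 0.29 over the cathepsins. Summed pump RNA averaged 625 to 638 RPKM in the 3 lifespan groups at 20 weeks and 632 to 686 RPKM at 10 weeks.

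The clearest was atp6v1h, the regulatory H subunit, with 30.6 ± 3.68 RPKM at 20 weeks and 37.1 ± 6.98 RPKM at 10 weeks (SD, n = 45 each). It was lower in 40 fish and higher in 5 (log2 -0.26 ± 0.03, adjusted p = 6e-08). It was called within the fish of batch 1 (log2 -0.28, adjusted p = 1.8e-05) and of batch 2 (-0.27, adjusted p = 0.011). Within lifespan groups the log2 change was -0.18 in the long-lived (adjusted p = 0.0888), -0.32 in the middle and -0.28 in the short-lived fish, and no difference between long-lived and short-lived fish was called.

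The other 3 pump loci were atp6v1c1a Nfu_g_1_014117 (log2 -0.17, lower in 34 of 45 fish), the accessory subunit atp6ap2 (-0.10, lower in 26) and ATP6V0E1 (-0.10, lower in 28). ctssb.2 Nfu_g_1_011134 averaged 40.2 ± 21.1 RPKM at 20 weeks and 31.2 ± 9.91 RPKM at 10 weeks and was higher in 34 fish (log2 0.29 ± 0.07, adjusted p = 0.0027). ctsl1a Nfu_g_1_017186 (-0.44, lower in 29 fish), ctsk (-0.23, lower in 29) and ctsf (-0.17, lower in 31) were lower.

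Fits within each batch gave other calls for most of these, and the difference between batches was not tested. ctssb.2 was at log2 0.33 in batch 1, where it was called, and 0.16 in batch 2. ctsf was called lower in batch 1 (-0.21), against -0.13 in batch 2, as was ctsl1a Nfu_g_1_017186 (-0.67, against -0.025). In batch 2 atp6ap2 (-0.24, against -0.055 in batch 1) and atp6v1e1b Nfu_g_1_011667 (-0.29, against -0.041) were called lower and atp6v0a1b (0.73, against -0.10) higher. Of the 8 loci called over all fish, atp6v1h alone was called in both batches. Of 20 macrophage markers 2 were higher and 0 lower, and of 17 pigment cell markers 1 was higher and 12 lower. In the list of TFEB and nutrient sensing 4 of 13 were lower and 0 higher, with tfec (-0.46) and mitfa (-0.47) among them.

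No member was called between lifespan groups. In each of the comparisons long-lived and middle against short-lived fish, at 10 and at 20 weeks, and for the change between clips in long-lived minus short-lived fish, 0 pump and 0 cathepsin loci were called, and 0% of all loci were (edgeR). At an unadjusted p under 0.05 there were 630 and 1476 loci for long-lived and middle fish at 10 weeks, 674 and 470 at 20 weeks, and 320 for the change. The smallest member p in long-lived against short-lived fish at 10 weeks was 0.042 for ctsl.1 (log2 -0.94, adjusted p = 0.889). In the middle group at 10 weeks it was 0.039 for ctsf (log2 0.22, adjusted p = 0.61), and for the change 0.045 for atp6v1ba Nfu_g_1_014536 (log2 0.18, adjusted p = 0.995).

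Within groups, pump loci varied together most in liver. As a description, with group means taken out, the mean Pearson correlation (log2 CPM plus 0.1, TMM-scaled) between pairs of pump loci was 0.50 over the 25 livers of the age groups and 0.53 over the 15 livers of the treatment groups, and for pairs of cathepsins 0.24 and 0.35. In skin it was 0.18 for the pump and 0.22 for cathepsins over the age groups, and 0.37 and 0.39 over the treatment groups. Brain gave 0.28 and 0.29 over 15 libraries and fin 0.29 and 0.25 over 90. Over pairs of all loci this signed mean was at most 0.00538. Scaling balances rises and falls within each library, which keeps that mean near 0, so it is a weak background for the members. Values of a library share its depth, scaling and cell makeup.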

How the data were processed

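Tissue RNA of 185 fish samples was extracted with QIAzol and made into TruSeq RNA libraries, per the labels' protocols. The submitters' processing notes name CASAVA 1.8.0 and 1.8.2, bcl2fastq 1.8.4, TopHat2 2.0.6 and featureCounts 1.4.3-p1. No source used here states the genome build or whether counting used strand. The authors deposited raw read counts per locus (whole numbers) and, in a second table, RPKM values, per the file headers. Levels and shares were computed from the deposited RPKM, and tests from the deposited counts.

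Counts were fitted with edgeR 4.0.16 (TMM scaling, filterByExpr, robust quasi-likelihood) in R 4.3.3, with p-values adjusted by Benjamini-Hochberg over all tested loci and a threshold of 0.05. All groups of a tissue and arm shared the estimate of spread. SE is the absolute log2 fold change over the root of F. Fish was a block for tissues and for the 2 fin clips, since the labels give the same fish identifier to libraries of 1 animal. Lifespan groups were compared with batch (from the titles) as covariate. Each fish is a separate animal by its identifier, with no statement on shared tanks. Replicates differed by more than sampling noise in every group. Alternatives were DESeq2 1.42.0, relative-log-expression factors, no count filter, trends along gene length and along the loci low in the MC10 brain (lowess, span 0.3), single libraries or pairs left out, no block, and each fin batch alone.

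Values of each fish are given for at most 4 pump and 4 cathepsin loci per comparison, those with the smallest p among the called, or for loci with the smallest p of each class where none was called. Members and lists were chosen with earlier results of these data known, so no list has a test or a p of its own. Some of the fits were also run on simulated counts drawn without fish effects. That run cannot speak for fits with fish as a block, and its outcome is not given here. Intervals and SE reflect the spread between fish. Positions, promoters and proteins were not used here, since the loci were not matched to a reference.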

Additional observations from a re-analysis of the deposited data

Results flagged for a closer look

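In groups of 5 fish whose values are given for named loci, 134 sets of 5 were examined. Sought was a value set apart by more than 0.71 of the range from its nearest neighbour. For 5 normally distributed values, chance gives this in about 1 set in 20. RPKM was used without logs, the loci were picked by p-value and fish recur between sets, so that rate need not hold here. There were 14 such values. The liver of the 9-week vehicle fish MC1 gave 4 of them: ATP6V0E1 at 132.16 RPKM (others 53.4 to 66.01), ctsc at 46.37 RPKM (others 14.48 to 18.1), atp6v0cb Nfu_g_1_018617 at 17.03 RPKM (others 4.83 to 6.69) and ctsl.1 at 2.28 RPKM (others 0 to 0.12). The liver of the 27-week vehicle fish MC9 gave 2, atp6v1h at 42.62 RPKM (others 10.26 to 16.87) and ctsl.1 at 46.14 RPKM (others 0.34 to 1.22). Both livers had the highest macrophage sums of their groups, and the part of these was not tested.

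Other livers set apart were that of the rotenone fish MR28 for ctsl1a Nfu_g_1_017186 (0.13 RPKM, others 0.04 to 0.06), of the 9-week vehicle fish MC2 for atp6v1e1b Nfu_g_1_008261 (114.92 RPKM, others 23.16 to 26.77) and of the 5-week fish JM98 for ctsba Nfu_g_1_018713 (20.99 RPKM, others 5.43 to 9.09). In skin, the rotenone fish MR26 was set apart for ctsl1a Nfu_g_1_017186 (13.54 RPKM, others 3.9 to 5.83), the 9-week vehicle fish MC4 for ctsh (8.37 RPKM, others 3.7 to 4.19), and the 12-week fish JM109 for ctsf (179.52 RPKM, others 34.23 to 40.97) and JM104 for ctsl.1 (0.39 RPKM, others 0 to 0.08). In brain, the 27-week vehicle fish MC10 was low for ATP6AP1L Nfu_g_1_004895 (21.81 RPKM, others 53.51 to 59.82).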

How the results depend on the processing

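The large tissue and late skin differences kept their counts of called members within 1.5 times under nearly all alternatives, whereas the small counts of the treatment arm and young liver did not. The exception in skin was the trend along the MC10 difference. It left 12 of 25 called members between 39 and 12 weeks and turned atp6v1d (log2 -0.18) and atp6v1h (-0.083) below 0. Between 12 and 5 weeks in liver, the count of 1 became 3 with DESeq2, 2 with relative-log-expression factors, 0 without the filter and 2 with the MC10 trend, and over all ages 2 became 1 without the livers of JM103, which held yolk gene RNA, and JM100. For vehicle age, brain's 2 became 5 with DESeq2, 1 with relative-log-expression factors and 1 without the filter, liver's 0 became 2 with DESeq2, and skin's 4 became 8 with DESeq2 and 9 without the skins of MC7 and MR30. For rotenone, brain's 1 became 0 without the filter, liver's 3 became 0 without MC7 and MC8, and skin's 0 became 2 with DESeq2, 1 with relative-log-expression factors, the length trend, the MC10 trend or no filter, and 3 without MC7 and MR30. The cause was not tested. Without the replicate block for fish, 4 member loci were called between fin clips, against 8 with it, and leaving it out changed no other count by over 1.5 times.

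With each library left out in turn, the number of called members ranged from 0 to 14 for brain rotenone, 0 to 10 for brain vehicle age, 1 to 7 for liver rotenone, 0 to 7 for liver vehicle age, 0 to 2 for skin rotenone, 0 to 9 for skin vehicle age, 0 to 2 for liver at 12 against 5 weeks, 1 to 3 for liver over all ages and 7 to 14 for skin at 12 against 5 weeks. For skin at 39 against 12 weeks it stayed between 22 and 27, and for brain against liver between 32 and 34. Loci near 0 RPKM, such as atp6v0a1b in liver, rest on few reads. Counts of called members under alternatives are given without the share of all loci called in the same fit.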
